A study of Mus musculus with 36 samples.

Results

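Messenger RNA of 10 Polycomb complex genes was followed over 24 h in a mouse pre-B cell line in which the transcription factor Ikaros can be activated. The genes were chosen by symbol and not by a cut on their values, though with earlier results of these data known. Polycomb repressive complex 2 (PRC2) gave Ezh1, Ezh2, Eed, Suz12 and Jarid2. Polycomb repressive complex 1 (PRC1) gave Bmi1, Ring1, Rnf2, Cbx7 and Phc1. All 10 were present among the 12762 genes of the deposited table. B3 is a mouse pre-B lymphocyte line, an immortalised stage of B cell development before the antibody light chain is made. Ikaros cells were B3 cells transduced with an MSCV retrovirus that encodes haemagglutinin-tagged wild-type Ikaros fused to ERt2, followed by an IRES and GFP. Fused to ERt2, the tamoxifen-binding part of the oestrogen receptor, a protein enters the nucleus once 4-hydroxytamoxifen (4-OHT) is added. Control cells were B3 cells with the matching vector, which carries ERt2, IRES and GFP without Ikaros, and both lines were GFP-sorted pools of transduced cells and not single clones. Collection was at 0, 2, 6, 12, 18 and 24 h in either line, which gives 12 groups of 3 libraries and 36 libraries in all. The labels give 0.5 uM 4-OHT for every library, whereas the study's methods state that the 0 h cultures had no drug and were collected separately, so time, drug and collection cannot be told apart in a comparison with 0 h.

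Polycomb proteins keep genes silent through chromatin. In PRC2, Ezh2 or its relative Ezh1 methylates a lysine of histone H3, Eed and Suz12 are needed for that activity, and Jarid2 helps the complex to bind chromatin. In PRC1, Ring1 or Rnf2 attaches ubiquitin to histone H2A, Bmi1 stimulates that step, Cbx7 reads the mark left by PRC2, and Phc1 lets complexes cluster. In the B lineage, Ezh2 is known for its high expression in dividing precursors and for its part in rearrangement of the heavy chain locus.

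The main pattern was a parting of PRC2 subunits. At 24 h, Ezh2 was 2.67-fold higher and Jarid2 2.60-fold higher in Ikaros than in control cells, Eed was lower at 0.575 of the control level, and Suz12 differed by less than the spread between replicates. Ezh1 was lower in Ikaros cells at 2, 6 and 18 h. Of all genes, 31% passed the test between lines as higher at 24 h and 31.9% as lower. A mix of rises and falls thus does not set these genes apart. Within PRC1, Phc1 was higher in Ikaros cells at the 4 times from 6 h onward, Ring1 at 6 and 24 h and Bmi1 at 18 h. Rnf2 and Cbx7 passed the test between lines at no time in the fit of 12 group means. With culture batch as a block, Rnf2 passed at 12 h (limma adjusted p = 0.0483).

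The RefSeq promoters of Ezh2, Eed, Suz12 and Jarid2, the PRC2 genes compared above at 24 h, are printed here. They run from 250 bases before to 50 after the start, 5′ to 3′ on the gene's strand (GRCm38.p6). Capitals mark either TTTCCCGC, TTTCGCGC, TTTGCCGC or TTTGGCGC, letters of the E2F motif, or TGGGAA, letters of the Ikaros motif, each searched on both strands. No base was shared by matches of the 2 motifs. Ezh2 lies at chr6:47594981-47595280 on the minus strand, Eed at chr7:89980927-89981226 on the minus strand, Suz12 at chr11:79992856-79993155 on the plus strand and the upstream of 2 Jarid2 promoters at chr13:44730524-44730823 on the plus strand.
Ezh2: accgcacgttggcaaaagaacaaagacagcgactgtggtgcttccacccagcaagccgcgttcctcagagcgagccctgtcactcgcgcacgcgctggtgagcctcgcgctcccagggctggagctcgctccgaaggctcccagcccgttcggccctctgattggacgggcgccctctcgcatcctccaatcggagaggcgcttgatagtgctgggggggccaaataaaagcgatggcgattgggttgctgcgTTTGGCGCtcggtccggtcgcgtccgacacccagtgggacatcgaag
Eed: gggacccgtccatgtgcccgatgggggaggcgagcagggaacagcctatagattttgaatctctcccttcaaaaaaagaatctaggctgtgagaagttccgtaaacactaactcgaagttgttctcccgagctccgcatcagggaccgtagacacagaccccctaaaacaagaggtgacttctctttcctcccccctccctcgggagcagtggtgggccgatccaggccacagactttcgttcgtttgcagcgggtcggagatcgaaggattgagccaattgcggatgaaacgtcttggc
Suz12: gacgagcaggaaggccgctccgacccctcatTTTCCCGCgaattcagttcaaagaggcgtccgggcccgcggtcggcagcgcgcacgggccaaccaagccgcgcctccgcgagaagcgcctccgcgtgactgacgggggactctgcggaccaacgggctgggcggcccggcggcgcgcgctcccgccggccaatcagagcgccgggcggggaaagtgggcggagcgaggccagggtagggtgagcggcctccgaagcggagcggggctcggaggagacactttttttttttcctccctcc
Jarid2: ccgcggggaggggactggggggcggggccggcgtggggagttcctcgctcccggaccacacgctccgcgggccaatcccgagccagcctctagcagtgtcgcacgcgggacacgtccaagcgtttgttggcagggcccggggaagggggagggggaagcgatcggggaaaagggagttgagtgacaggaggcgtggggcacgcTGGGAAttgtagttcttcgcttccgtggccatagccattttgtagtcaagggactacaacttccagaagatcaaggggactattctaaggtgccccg
The table of promoters held 11 windows for the 10 genes. E2F letters were found in Ezh2, with their first base at 4 counted from the start, and in Suz12, with their first base at -219. These letters occur in 2.26% of all 32851 promoters of that length. The Ikaros letters were found in the upstream Jarid2 promoter (first base at -47), Bmi1 (-246) and Phc1 (-58), against 25.6% of all promoters. The other Jarid2 promoter held neither motif. Eed, Ezh1, Ring1, Rnf2 and Cbx7 held neither in this window. A match of letters is a description of the sequence and does not show binding.

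Values are log2 levels after the authors' correction for GC content, gene length and library preparation, shifted by a constant so that the lowest value of the table is 1. A difference of 1 is a 2-fold change. The base of the logarithm is not stated in the table and is taken as 2, as cqn builds it. The study's methods state an intended number of reads, but the depth reached per library is unknown because counts were not used here. Groups of 3 libraries limit the precision. Library medians lay between 11.70 and 11.73. Comparisons were fitted with limma across the 12762 genes. A difference counts as called where its Benjamini-Hochberg adjusted p is under 0.05. The Ikzf1 row, which counts reads of the endogenous gene and of the transgene together, was higher in Ikaros than in control cells at every time, by 5.19 to 6.26 on the log2 scale, with no overlap of libraries. All 10 pre-B markers on the list used were in the table, with means from 9.29 to 18.38, Cd79a being highest. None of 6 T cell or 4 fibroblast markers was in it. For 2 of 6 myeloid markers the means were 6.30 and 6.66, with a summed level of 6.01 to 8.74 in control and 7.82 to 10.03 in Ikaros libraries. For 2 of 4 erythroid markers, of which Hbb-bt was highest at a mean of 12.43, the summed level was 11.97 to 13.28 in control and 9.09 to 14.46 in Ikaros libraries. Their part in the results was not tested. In bulk RNA, fewer cells of a kind and less RNA per cell cannot be told apart.

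The 10 genes covered a wide range of levels. Averaged over the 36 libraries, Ezh2 was the highest at 15.26, above 95.4% of genes or equal to them, and Cbx7 the lowest at 9.83, the 27.4th percentile. Eed (13.25) and Suz12 (13.24) were next to each other, and their libraries overlapped. Rnf2 followed at 12.81, Ring1 at 12.35, Bmi1 at 12.26, Ezh1 at 11.78, Phc1 at 11.74 and Jarid2 at 11.60, and the libraries of each gene overlapped those of the next. The values adjust for gene length, which allows this order of levels.

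**Figure D1:**
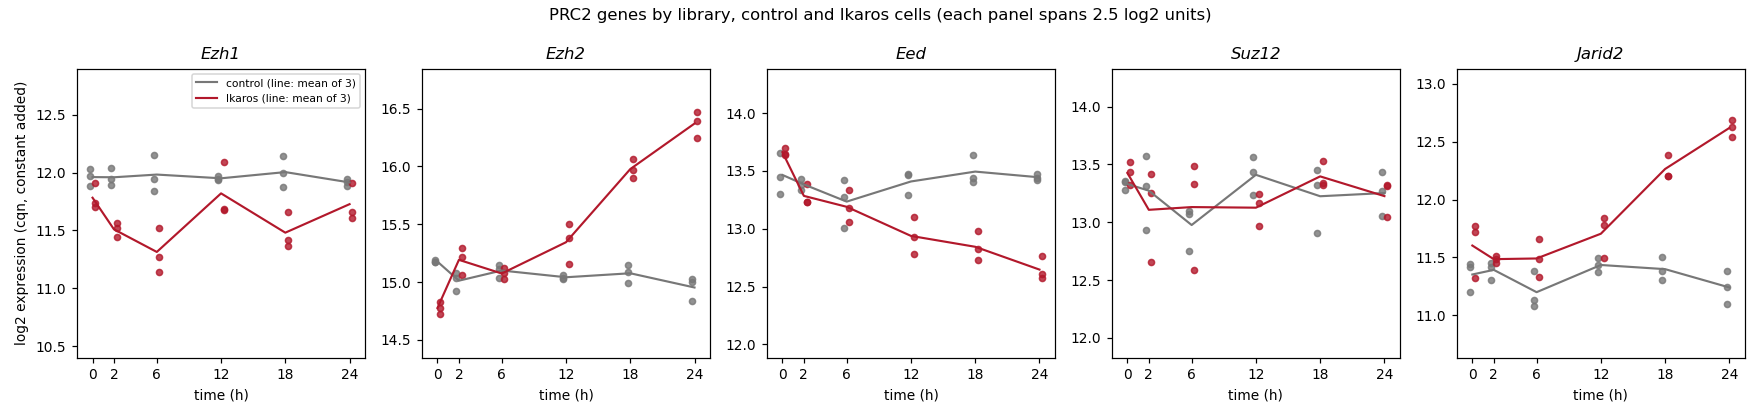
Log2 level (y axis) of the 5 PRC2 genes against time in hours (x axis) in each library of control (grey) and Ikaros (red) cells, with lines through the means of 3. Ezh2 and Jarid2 separate upward in Ikaros cells at 18 and 24 h and Eed downward from 12 h, while Suz12 overlaps at every time.

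Ezh2, the main methyltransferase of PRC2 (chromosome 6, 47530139 to 47595341, GRCm38), started lower in Ikaros cells and ended higher. At 0 h the 3 control libraries were at 15.17, 15.17 and 15.19 and the 3 Ikaros libraries at 14.78, 14.83 and 14.72, a difference of -0.40 (SE 0.08, limma adjusted p = 0.00191). The lines thus did not overlap before induction. That call was lost with library preparation run as a term (adjusted p = 0.0940), without replicate 1 (0.0910) and without replicate 2 (0.147). At 2 h control libraries held 14.92, 15.08 and 15.04 and Ikaros libraries 15.22, 15.06 and 15.30, and at 6 h they held 15.12, 15.15 and 15.03 against 15.12, 15.08 and 15.02. The lines overlapped at both times. At 12 h Ikaros libraries read 15.50, 15.38 and 15.15 against 15.06, 15.03 and 15.04 in control, a difference of 0.30 (SE 0.08, limma adjusted p = 0.00412). All Ikaros libraries were then above all control libraries, although the call was lost with only these groups in the fit (adjusted p = 0.122), without replicate 1 (0.143) and without replicate 2 (0.131). At 18 h the Ikaros libraries were at 15.90, 15.97 and 16.06 and the control libraries at 15.09, 15.15 and 14.99. At 24 h Ikaros libraries reached 16.47, 16.40 and 16.25 while control libraries stayed at 15.02, 15.00 and 14.84. The differences were 0.90 (SE 0.08, limma adjusted p = 6.59e-10) at 18 h and 1.42 (SE 0.08, limma adjusted p = 6.29e-14) at 24 h, and neither call was lost under an alternative.

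Since the lines differed in Ezh2 at 0 h, the change of that difference was also tested. From 0 to 24 h it rose by 1.82 (SE 0.12, limma adjusted p = 2.20e-12). Between 2 and 24 h, when all cultures had the drug, it rose by 1.24 (SE 0.12, limma adjusted p = 2.85e-09). Within Ikaros cells Ezh2 was 3.02-fold its 0 h level at 24 h, whereas control cells gave 0.857 of their 0 h level, which did not pass the test (adjusted p = 0.287).

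Genes of DNA replication, many of which are expressed with Ezh2 in dividing cells, were read from a list of 36, all of them in the table. At 24 h 34 of the 36 were called lower in Ikaros cells and none higher, against 31.9% of all genes called lower and 31% called higher. All 36 differences were negative, from -2.97 to -0.14, with a median of -0.85 against -0.01 over all genes. Taken per library as the median over the list relative to control cells at 0 h, Ikaros cells were at -0.29 ± 0.03 (SD, n = 3) at 18 h and -0.88 ± 0.05 at 24 h, and the other 10 groups lay between -0.09 and 0.09. Ezh2 was thus at its highest in the 2 groups in which these genes were lowest. Whether the S phase genes had a part in the Ezh2 result was not tested.

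Ezh1, the second methyltransferase, which is expressed mainly in resting cells (chromosome 11, 101191115 to 101226463), was lower in Ikaros cells at 3 of the 6 times. At 6 h Ikaros libraries gave 11.52, 11.14 and 11.27 and control libraries 12.16, 11.95 and 11.85, a difference of -0.67 (SE 0.11, limma adjusted p = 4.32e-05). At 18 h the values were 11.66, 11.37 and 11.42 against 12.00, 11.88 and 12.14, a difference of -0.52 (SE 0.11, limma adjusted p = 0.000296). The lines did not overlap at either time. At 2 h the difference was -0.45 (limma adjusted p = 0.00553), a call lost with only these groups in the fit (0.0855), without replicate 1 (0.0503) and without replicate 2 (0.144). At 0, 12 and 24 h the lines overlapped, with differences of -0.18, -0.13 and -0.19. The 95% interval at 24 h was -0.42 to 0.05, so that a fall of the size seen at 6 h lay outside it. Control libraries of Ezh1 ranged over all times only from 11.85 to 12.16.

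Eed, the subunit that binds the methylated histone and switches on the methyltransferase (chromosome 7, 89954654 to 89980983), moved the opposite way from Ezh2. At 0 h control libraries were at 13.30, 13.45 and 13.65 and Ikaros libraries at 13.70, 13.64 and 13.65. At 12 h Ikaros libraries had 12.93, 13.10 and 12.78 against 13.47, 13.47 and 13.29 in control, and at 24 h 12.57, 12.61 and 12.76 against 13.42, 13.44 and 13.47. The lines overlapped at 0, 2 and 6 h and were apart, with Ikaros below, at 12, 18 and 24 h. The difference was -0.47 (SE 0.11, limma adjusted p = 0.0007) at 12 h, -0.65 (SE 0.11, 9.03e-06) at 18 h and -0.80 (SE 0.11, 3.16e-07) at 24 h. From 0 to 24 h the difference fell by 0.99 (SE 0.15, limma adjusted p = 4.41e-06). In Ikaros cells the level at 24 h was 0.495 of that at 0 h.

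Suz12, the scaffold of PRC2 (chromosome 11, 79993106 to 80034123), passed the test between lines at none of the 6 times, with differences from -0.28 to 0.17. Its replicates were wider apart than those of Ezh2 or Eed. At 6 h Ikaros libraries were at 13.48, 13.33 and 12.58 and control libraries at 13.10, 13.07 and 12.75. At 24 h they were at 13.31, 13.32 and 13.05 against 13.27, 13.43 and 13.05, a difference of -0.03 with a 95% interval of -0.44 to 0.38. A change of the size of the Eed fall at 24 h lay outside that interval. At 12 h the difference of -0.28 (adjusted p = 0.257) passed with culture batch as a block and the 0 h cultures as their own blocks (adjusted p = 0.0449) and without replicate 3 (0.0436). The 6 h difference, 0.16 over all libraries, was 0.32 without replicate 3 and then also passed (adjusted p = 0.0366).

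Jarid2, the accessory subunit that guides PRC2 to chromatin (chromosome 13, 44729474 to 44921643), rose late. At 0 h control libraries were at 11.42, 11.44 and 11.20 and Ikaros libraries at 11.72, 11.77 and 11.32. At 18 h Ikaros libraries held 12.38, 12.20 and 12.21 and control libraries 11.39, 11.50 and 11.31. At 24 h the values were 12.69, 12.54 and 12.63 against 11.38, 11.25 and 11.09. The lines overlapped up to 12 h and not at 18 and 24 h. The difference was 0.87 (SE 0.12, limma adjusted p = 3.85e-07) at 18 h and 1.38 (SE 0.12, limma adjusted p = 6.59e-11) at 24 h. Its change from 0 to 24 h was 1.13 (SE 0.16, limma adjusted p = 2.17e-06). At 6 h a difference of 0.29 was called at an adjusted p of 0.0489, with overlapping libraries, and the call was lost under 6 of the 10 alternatives. At 12 h a difference of 0.27 had a limma adjusted p of 0.0579, which became 0.0326 with culture batch as a block. It was 0.0251 with the 0 h cultures also as their own blocks, 0.0492 with quantile normalization and 0.00761 without replicate 3.

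**Figure D2:**
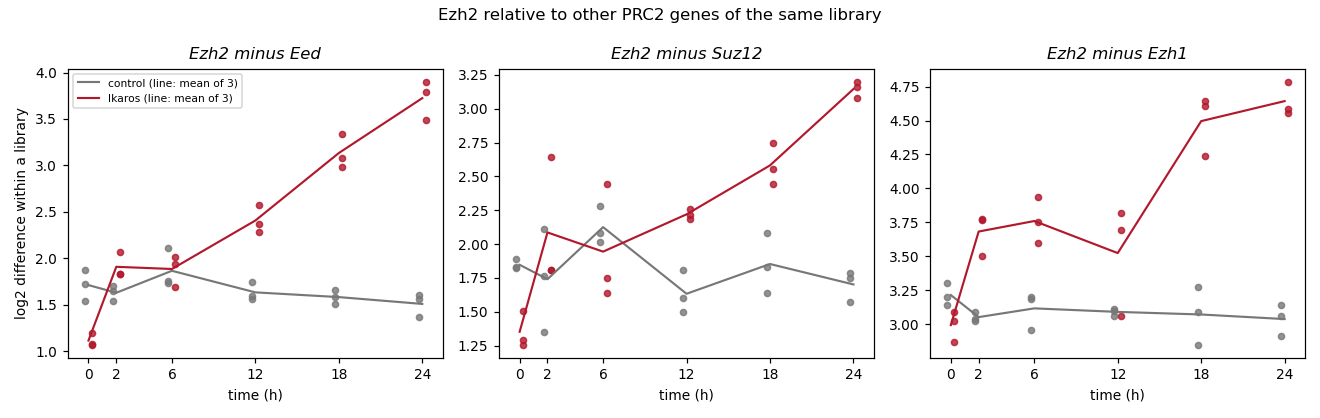
Log2 level of Ezh2 minus that of Eed, Suz12 or Ezh1 in the same library (y axis) against time in hours (x axis), in control (grey) and Ikaros (red) cells, with lines through the means of 3. At 24 h every Ikaros library lies above every control library in all 3 panels.

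The balance within PRC2 was read as the difference of 2 log2 levels in the same library, in which the constant cancels. Ezh2 minus Eed in Ikaros cells was 1.11 ± 0.07 (SD, n = 3) at 0 h and 1.91 ± 0.14 at 2 h. It was 2.41 ± 0.15 at 12 h and 3.72 ± 0.22 at 24 h. In control cells its group means lay between 1.51 and 1.87. Ezh2 minus Suz12 went from 1.35 ± 0.14 at 0 h to 3.15 ± 0.06 at 24 h in Ikaros cells, against 1.85 ± 0.04 and 1.70 ± 0.12 in control cells. Ezh2 minus Ezh1 went from 2.99 ± 0.11 to 4.64 ± 0.12 in Ikaros cells, against 3.21 ± 0.08 and 3.04 ± 0.11 in control cells. The plot of these differences shows all Ikaros libraries below all control libraries at 0 h and above them at 24 h in each of the 3 panels. Eed minus Suz12 was 0.24 ± 0.07 at 0 h and -0.58 ± 0.26 at 24 h in Ikaros cells, and 0.13 ± 0.17 and 0.19 ± 0.21 in control cells. These are descriptions, and no test was run on them.

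**Figure D3:**
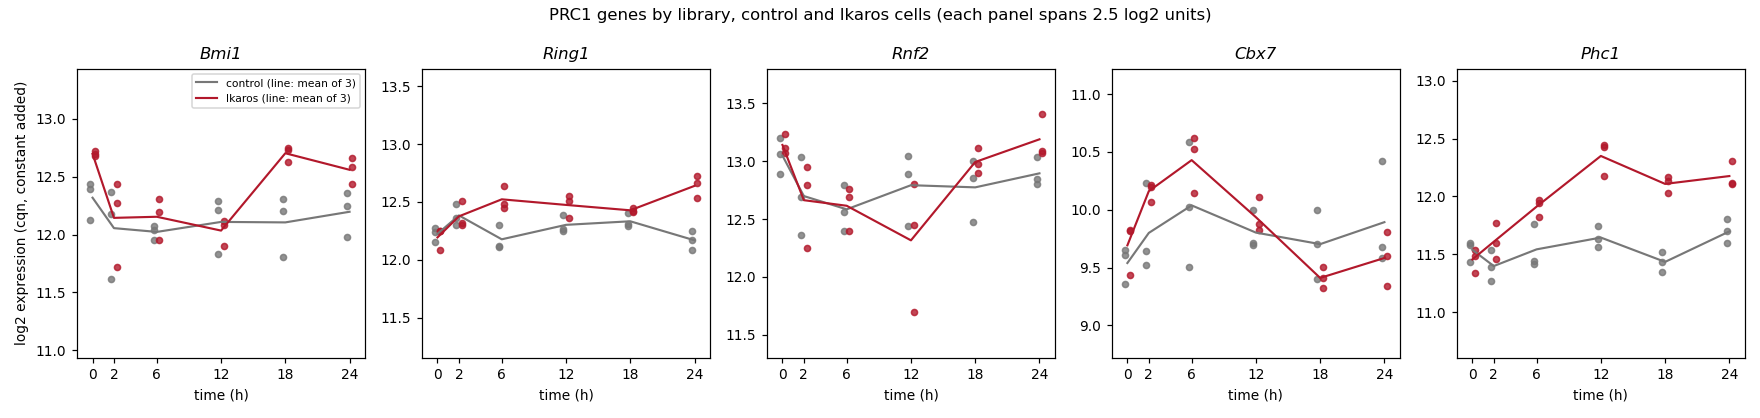
Log2 level (y axis) of the 5 PRC1 genes against time in hours (x axis) in each library of control (grey) and Ikaros (red) cells, with lines through the means of 3. Phc1 stays above control in Ikaros cells from 6 h. Cbx7 overlaps at every time and Rnf2 at all times but 24 h, where Ikaros libraries lie above control.

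Phc1, the subunit through which PRC1 complexes join (chromosome 6, 122317731 to 122340561), was the PRC1 gene with the most sustained difference. At 0 h control libraries were at 11.58, 11.60 and 11.43 and Ikaros libraries at 11.54, 11.34 and 11.49. At 12 h Ikaros libraries reached 12.43, 12.18 and 12.44 against 11.63, 11.74 and 11.56. At 24 h they were at 12.30, 12.11 and 12.12 against 11.70, 11.59 and 11.80. The lines overlapped at 0 and 2 h and were apart at 6, 12, 18 and 24 h. The difference was 0.37 (SE 0.10, limma adjusted p = 0.00624) at 6 h and largest, 0.71 (2.90e-06), at 12 h. It was 0.67 (3.19e-06) at 18 h and 0.48 (0.000236) at 24 h. The 6 h call was lost with library preparation run as a term (0.0683), with only these groups in the fit (0.140) and without replicate 2 (0.157). The change of the difference from 0 to 24 h, 0.56 (SE 0.15, limma adjusted p = 0.00228), was lost without replicate 2 (0.0962).

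Ring1 and Rnf2 are the alternative ubiquitin ligases of PRC1, and their values differed in precision. For Ring1 (chromosome 17, 34020792 to 34024680) Ikaros libraries at 24 h were at 12.66, 12.53 and 12.72 and control libraries at 12.25, 12.17 and 12.08, a difference of 0.47 (SE 0.08, limma adjusted p = 1.64e-05). At 6 h they were at 12.63, 12.48 and 12.45 against 12.11, 12.11 and 12.30, a difference of 0.35 (limma adjusted p = 0.00157), lost with only these groups in the fit (0.127), without replicate 1 (0.0979) and without replicate 2 (0.0744). The lines did not overlap at either time. The change of the Ring1 difference from 0 to 24 h was 0.50 (SE 0.12, limma adjusted p = 0.000767). For Rnf2 (chromosome 1, 151458004 to 151500955) libraries of a group lay up to more than a log2 unit apart, as at 12 h, with Ikaros libraries at 12.45, 12.80 and 11.70 and control libraries at 12.89, 13.05 and 12.44. That difference of -0.48 (SE 0.22, adjusted p = 0.0795) passed with culture batch as a block (0.0483). At 24 h the Ikaros libraries of Rnf2, at 13.08, 13.09 and 13.40, all lay above the control libraries, at 12.85, 13.04 and 12.80. The difference of 0.29 did not pass the test, with a 95% interval of -0.16 to 0.75. Rnf2 overlaps Trmt1l on the opposite strand, which was higher in Ikaros cells at 12 h by 0.58 (adjusted p = 0.0217). The library kit marked strand, but the strand setting of the counting is not given in the sources used here, so reads of such pairs may not have been told apart.

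Bmi1, which stimulates the ligase (chromosome 2, 18677018 to 18686629), was higher in Ikaros cells at 18 h. Ikaros libraries held 12.63, 12.75 and 12.73 and control libraries 12.31, 12.20 and 11.81, a difference of 0.60 (SE 0.17, limma adjusted p = 0.00469), lost without replicate 2 (0.0760). At 24 h they held 12.44, 12.66 and 12.58 against 12.25, 12.36 and 11.98, a difference of 0.36 (adjusted p = 0.0728) that passed with culture batch as a block (0.0232). At 0 h all Ikaros libraries, at 12.70, 12.72 and 12.68, were also above the control libraries, at 12.39, 12.13 and 12.44, without passing the test (0.38, adjusted p = 0.228), which was passed without replicate 3 (0.45, adjusted p = 0.0179). Within Ikaros cells Bmi1 was below its 0 h level at 2, 6 and 12 h, by -0.55, -0.54 and -0.66 (limma adjusted p = 0.0275, 0.0180 and 0.00290). Each of these 3 calls was lost without replicate 2 (adjusted p = 0.181, 0.193 and 0.0684), and those at 2 and 6 h also without replicate 1 (0.0727 and 0.0613) and with library preparation run as a term (0.0875 and 0.157). The call at 2 h was also lost with only these groups in the fit (0.144).

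Cbx7, the reader of the PRC2 mark (chromosome 15, 79915807 to 79971119), passed no test between lines with all libraries in the fit. Its differences ran from -0.31 to 0.39 and its standard error was 0.23. Control libraries at 6 h were at 9.50, 10.02 and 10.59 and Ikaros libraries at 10.14, 10.52 and 10.62. Without replicate 3 the 6 h difference passed (0.57, limma adjusted p = 0.0304). At 24 h they were at 9.68, 9.58 and 10.42 against 9.34, 9.81 and 9.60, a difference of -0.31 with a 95% interval of -0.78 to 0.16. Cbx7 overlaps Apobec3 on the opposite strand, which was higher in Ikaros cells by 0.52, 0.51 and 0.79 at 12, 18 and 24 h (adjusted p = 0.000269, 0.000196 and 3.57e-07), so the limit given for Rnf2 holds here too.

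**Figure D4:**
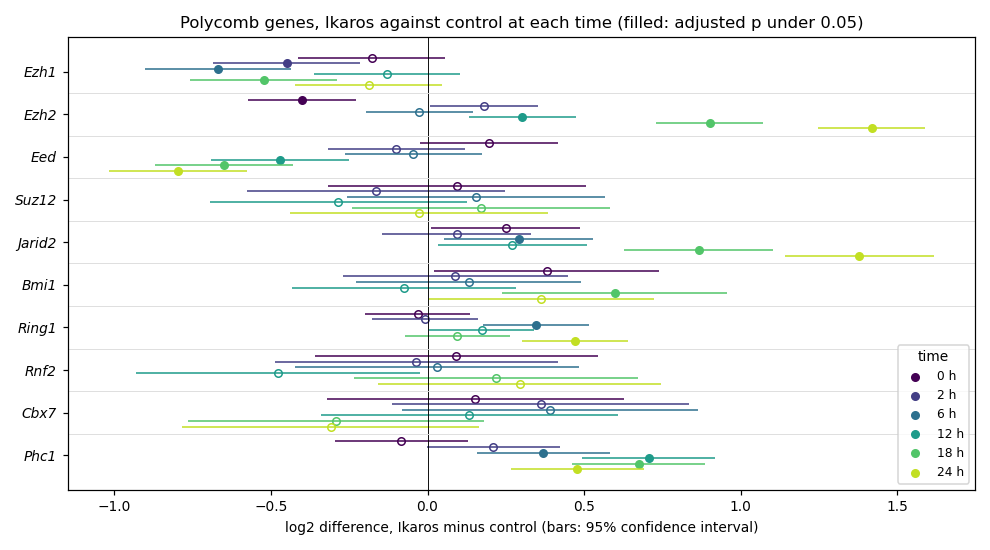
Ikaros minus control difference on the log2 scale (x axis) of the 10 genes (y axis) at 0, 2, 6, 12, 18 and 24 h (colours), with 95% confidence intervals as bars; filled points have a limma adjusted p under 0.05. The intervals of Ezh2 and Jarid2 at 18 and 24 h lie wholly above 0 and those of Eed at 12, 18 and 24 h wholly below.

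Counted over the 10 genes, the test between lines was passed before induction by Ezh2 alone (8.33% of all genes were called there) and at 2 h by Ezh1 alone (19.1%). It was passed by 4 genes at 6 h (37.3% of all genes) and by 3 at 12 h (45.8%). The late counts were 6 at 18 h (58.2%) and 5 at 24 h (62.9%). The share of the 10 genes was above that of all genes at 0, 6 and 18 h and below it at 2, 12 and 24 h, so the counts do not set these genes apart. At 24 h 4 were called higher (Ezh2, Jarid2, Ring1 and Phc1) and 1 lower (Eed), against 31% and 31.9% of all genes. The median difference of the 10 was 0.33. Libraries of the lines did not overlap at 24 h for 7 of the 10, against 71% of all genes. With culture batch as a block, the count at 12 h became 5, with Jarid2 and Rnf2 added. The change of the difference from 0 h was called for Ezh2 at 2 h (3.1% of all genes). By 6 h it was called for 4 genes (15.9%), by 12 h for 3 (29.7%), by 18 h for 4 (43%) and by 24 h for 5 (48.4%). All 4 calls at 6 h (Ezh1, Ezh2, Ring1 and Phc1) were lost with library preparation run as a term, with only these groups in the fit, without replicate 1 and without replicate 2, and Ring1 alone kept its call without replicate 3. The Eed call at 12 h was lost without replicate 1 (adjusted p = 0.0898), and that of Jarid2 at 18 h without replicate 1 (0.0694) and with library preparation run as a term (0.0770). Bmi1 at 12 h passed without replicate 3 (-0.60, adjusted p = 0.00904). From 2 to 24 h it was called for Ezh2, Jarid2 and Ring1 upward and Eed downward, against 47.3% of all genes, with Ring1 lost without replicate 3 (adjusted p = 0.0823). An F test over the 5 changes was passed by 6 of the 10 genes, against 59.8% of all genes. The Ezh2 call at 2 h (0.58, adjusted p = 0.00386), rested on the 0 h libraries and was lost with library preparation run as a term (0.0731), with only these groups in the fit (0.0525), without replicate 1 (0.279) and without replicate 2 (0.183).

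Over time within a line, Ikaros cells at 2 h had 3 of the 10 genes called against 0 h (19.2% of all genes). The count was 7 by 6 h (32.8%), 6 by 12 h (46.1%), 6 by 18 h (54.6%) and 5 by 24 h (60.6%). With culture batch as a block the count at 2 h was 5, with Suz12 and Rnf2 added (adjusted p = 0.0303 and 0.0487), both below their 0 h level. Both also passed with the block at 6 h (0.0324 and 0.0265), and Suz12 at 12 h (0.0232). At 24 h Ezh2 (1.59), Jarid2 (1.02), Phc1 (0.72) and Ring1 (0.45) were higher than at 0 h and Eed (-1.02) was lower. In control cells none of the 10 passed limma's adjusted test against 0 h at any time. At an unadjusted p under 0.05 they were 0 at 2 h, 3 at 6 h (Eed, Rnf2 and Cbx7), 0 at 12 and 18 h, and 1 at 24 h (Ezh2), against 7.88%, 28.1%, 5.7%, 14.9% and 11.7% of all genes in that order of time. In control cells 0.047%, 5.1%, 0.0549%, 0.478% and 0.47% of all genes were called at 2, 6, 12, 18 and 24 h. With culture batch as a block, Suz12 was called at 6 h in control cells (-0.44 in that fit, adjusted p = 0.0293).

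Other Polycomb genes were read from a list of 51 in 6 subgroups, of which 45 were in the table. Before induction 1 of them (2.22%) was called between lines, against 8.33% of all genes. The count was 5 (11.1% against 19.1%) at 2 h and 14 (31.1% against 37.3%) at 6 h. It was 22 (48.9% against 45.8%) at 12 h, 27 (60% against 58.2%) at 18 h and 26 (57.8% against 62.9%) at 24 h. The share was thus below that of all genes at 4 of the 6 times and slightly above it at 12 and 18 h. Of the 26 at 24 h, 10 were higher and 16 lower in Ikaros cells, and the median over the 45 was -0.03. Among 8 PRC2 accessory genes 4 were called lower and none higher, where 31.9% of all genes were called lower and 31% higher. The largest fall was that of Rbbp7, a histone-binding subunit, at -1.14 (SE 0.07, limma adjusted p = 4.14e-13), from 14.98 ± 0.02 (SD, n = 3) in control to 13.84 ± 0.10 in Ikaros cells, whereas its close relative Rbbp4 differed by 0.07 (adjusted p = 0.413). Aebp2 (-0.80), Phf19 (-0.52) and Epop (-0.51) were the other 3.

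Among 9 further genes of canonical PRC1, 2 were called higher and 2 lower at 24 h, against the same 31% and 31.9% of all genes. Scml4, a Polycomb protein of the Scm family, had a difference of 3.04 (SE 0.31, limma adjusted p = 3.06e-09), at 10.69 ± 0.18 in Ikaros and 7.65 ± 0.57 in control cells. It was lower in Ikaros cells at 0 h, at 6.99 ± 0.19 against 8.05 ± 0.18, a difference of -1.05 (limma adjusted p = 0.0325), and was the gene of the wider list called before induction. These 0 h levels and the control level at 24 h are low on the scale of the table. They lie below the Cbx7 mean of 9.83, the 27.4th percentile. Pcgf2, the relative that can take the place of Bmi1, had a difference of -1.61 (SE 0.17, limma adjusted p = 3.86e-09), at 9.98 ± 0.29 against 11.59 ± 0.14. Of 11 genes of variant PRC1, 2 were called higher, led by Pcgf1 at 0.88. A further 6 were called lower, led by Mga at -1.07, a partner of Max in such a complex. Of 3 genes of the PhoRC complex, which binds DNA directly in flies, only Sfmbt2 was called, at -1.42.

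The deubiquitinase complex PR-DUB removes the PRC1 mark. It had 4 of 10 genes called higher and 2 lower at 24 h, against 31% and 31.9% of all genes. Ogt, the enzyme that attaches N-acetylglucosamine to proteins, differed by 1.12 (SE 0.14, limma adjusted p = 5.08e-08) and Foxk2, a DNA-binding partner, by -0.85 (SE 0.10, limma adjusted p = 6.39e-08). Of 4 erasers 2 were called higher and 1 lower. Kdm6b, a demethylase of the PRC2 mark, differed by 1.25 (SE 0.18, limma adjusted p = 1.29e-06), at 14.59 ± 0.12 in Ikaros and 13.34 ± 0.12 in control cells, and Usp16, a deubiquitinase, by -0.61.

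**Figure D5:**
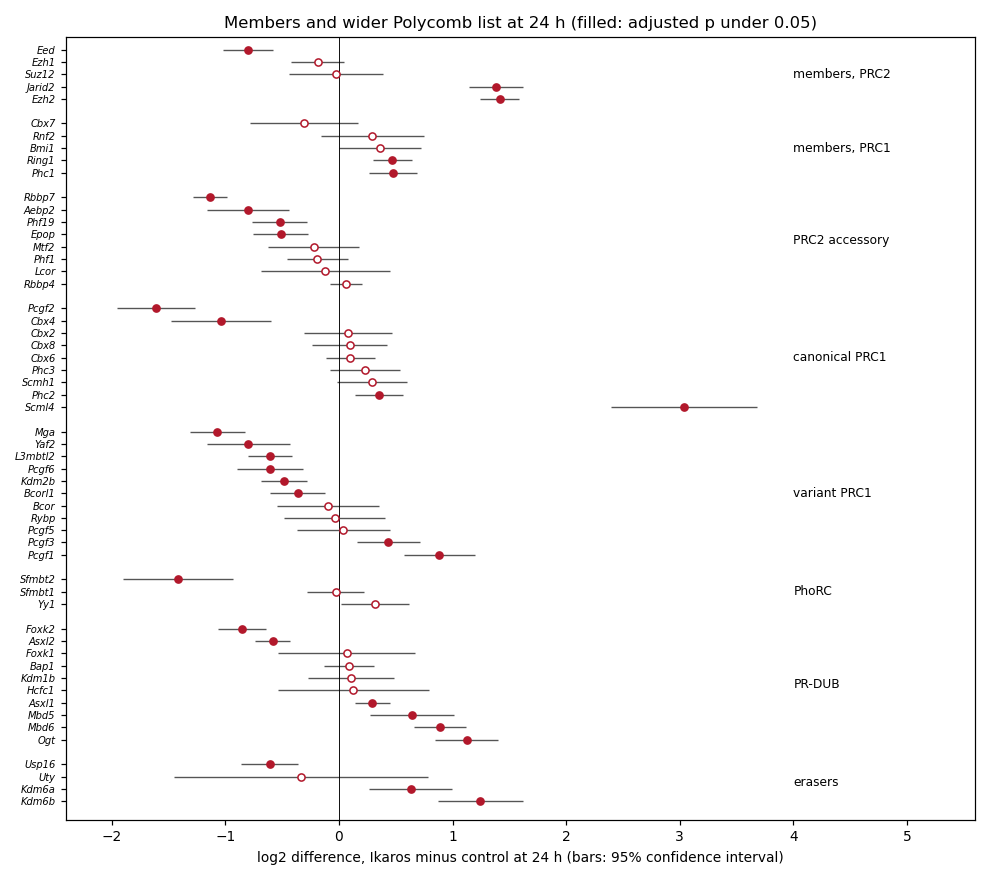
Ikaros minus control difference at 24 h on the log2 scale (x axis) of the 10 genes and of 45 further Polycomb genes by subgroup (y axis), with 95% confidence intervals as bars; filled points have a limma adjusted p under 0.05. Scml4 lies farthest to the right at 3.04 and Pcgf2 farthest to the left at -1.61.

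The genes most like each of the called members were found by Pearson's r over the 12 group means, which share libraries, drug and time, and are given as a description. For Ezh2 they were Ppp2r5a (r = 0.980), B230118H07Rik (0.980) and Sepp1 (0.977). For Jarid2 they were Cd97 (0.989), Nipbl (0.985) and Zcchc6 (0.984). For Eed they were Tsnax (0.991), G3bp1 (0.985) and Rap2a (0.985). For Phc1 they were Tsg101 (0.977), Fig4 (0.976) and Sik3 (0.973). The single most alike gene was Esrp1 (0.936) for Ezh1, Syngr3 (0.948) for Ring1 and Jmy (0.937) for Bmi1. Among the 10 genes themselves, r over the same 12 means was 0.921 between Ezh2 and Jarid2, -0.907 between Ezh2 and Eed, -0.871 between Eed and Phc1 and 0.817 between Bmi1 and Rnf2.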

How the data were processed

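Poly(A) RNA of 36 cultures was sequenced as strand-specific paired-end libraries. Per the study's methods, the authors trimmed the reads, aligned them to mm10 with TopHat2 keeping unique best hits, and counted genes with HTSeq. Tool versions, gene annotation and the strand setting are not given in the sources used here. The deposited values are log2 values after the authors' cqn correction for GC content and length and a non-parametric ComBat for library preparation, and since that adjustment took out variation before the fit, standard errors here may be too small.

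From these values, limma 3.58.1 in R 4.3.3 fitted 12 group means over all 36 libraries, with two-sided tests adjusted over 12762 genes. The fitting steps were tested on simulated data. Groups and batch numbers come from the labels, and the study's methods describe the batches as repeats of the time course. Replicates were numbered here in the order of their batches. Replicates 1, 2 and 3 came from batches 1, 2 and 4 at 0 h and 1, 3 and 4 later, which pairs the lines. Over 18 such pairs the correlation of deviations from group means ran from -0.0620 to 0.507 with a median of 0.127, and 12 pairs were above 0.1. The largest share of identical values between any 2 libraries was 0.384%.

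The 10 genes and all lists were chosen with earlier results of these data known. All 10 members are described. From the wider list, the called gene with the largest rise and fall of each subgroup at 24 h without overlap of libraries is named. For likeness the 3 genes with the highest r are named, or only the first of them for Ezh1, Ring1 and Bmi1. Alternatives were a culture batch block, the same with the 0 h cultures as their own blocks, library preparation run as a term, genes above the 25th percentile of mean expression (9571 genes), quantile normalization, limma with trend and robust settings, the compared groups alone, and leaving out each replicate. Gene positions are from the GRCm38 annotation and promoters from RefSeq (GRCm38.p6).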

Additional observations from a re-analysis of the deposited data

Results flagged for a closer look

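For 6 of the 10 genes Ikaros minus control was not the same over time, by a limma F test over the 5 changes from 0 h, a test passed by 59.8% of all genes. The adjusted p was 8.29e-12 for Ezh2, where the difference went from -0.40 at 0 h to 1.42 at 24 h. It was 7.06e-07 for Jarid2 (0.25 to 1.38) and 1.12e-05 for Eed (0.20 to -0.80). For Phc1 it was 0.000297 (-0.08 to 0.48, with 0.71 at 12 h). For Ring1 an adjusted p of 0.00239 (-0.03 to 0.47) was lost with library preparation run as a term (0.0672), without replicate 1 (0.0518) and without replicate 2 (0.0823). For Ezh1 an adjusted p of 0.0200 (-0.18 at 0 h, -0.67 at 6 h and -0.19 at 24 h) was lost with library preparation run as a term (0.208) and without each of the 3 replicates in turn (0.0766 to 0.225). Bmi1, at 0.164, passed with culture batch as a block (0.0393).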

How the results depend on the processing

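Of 25 called differences between lines, or changes of them from 0 to 24 h, of the 10 genes, 10 alternatives each gave 250 values. Of these 227 kept direction and call, 23 kept the direction only and 0 turned. A further 12 called differences at 24 h were followed: the largest rises and falls of the wider-list subgroups without overlap, Cdkn2a and Gata3. Of their 118 values 114 kept direction and call, under alternatives chosen after seeing the data. The other called genes of the wider list were not followed singly. The number of the 10 genes called moved by over 1.5 times as follows, and the cause was not tested. With culture batch as a replicate block, which pairs the lines, it was 5 in place of 3 at 12 h between lines (6 with the 0 h cultures as their own blocks), 5 in place of 3 for Ikaros cells at 2 h against 0 h, and 1 in place of 0 for control cells at 6 h against 0 h. The block also gained Bmi1 at 24 h and in the F test, Suz12 and Rnf2 at 6 h and Suz12 at 12 h for Ikaros cells against 0 h, and with the 0 h cultures as their own blocks Cbx7 for the change from 2 to 24 h (adjusted p = 0.0332). It lost Ezh1 for Ikaros cells at 18 h against 0 h (0.0611) and changed no other call. With library preparation run as a term it was 0 in place of 1 at 0 h and 2 in place of 4 at 6 h between lines, 0 for the change from 0 to 2 h and from 0 to 6 h, and 1 in place of 3 at 2 h and 3 in place of 7 at 6 h for Ikaros cells against 0 h. With only the compared groups in the fit, which leaves fewer samples, it was 0 at 2 h and 1 at 6 h between lines, 0 for the changes from 0 to 2 h and from 0 to 6 h, and 0 for Ikaros cells at 2 h against 0 h. Leaving out each replicate gave 0 to 2 at 0 h, 0 to 1 at 2 h, 1 to 5 at 6 h and 2 to 5 at 12 h between lines, 0 to 1 for the change from 0 to 2 h and from 0 to 6 h, and 0 to 2 at 2 h and 0 to 8 at 6 h for Ikaros cells against 0 h. The F test was not run on the compared groups alone, and the comparisons with 0 h within a line could not be estimated with the 0 h cultures as their own blocks. The depth reached per library is unknown, so no limit from counting can be given.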

Other observations

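Genes that Polycomb complexes are known to silence in many cell types were read from a list of 18, of which 7 were in the table. At 24 h 2 of the 7 were called, both higher in Ikaros cells (28.6%, against 62.9% of all genes), and the median difference was 0.22. At 0 h 2 were already higher (28.6%, against 8.33% of all genes), Hoxb6 at 12.62 against 11.00 (difference 1.63, limma adjusted p = 1.10e-07) and Cdkn2b at 12.60 against 11.81 (0.78, limma adjusted p = 0.0233). The change of the difference from 0 to 24 h was called for Hoxb6 alone, downward (-1.51, limma adjusted p = 7.78e-06), which is 14.3%, against 48.4% of all genes. All 4 genes with calls are named here after their values were seen. At 24 h Cdkn2a, the locus of cell cycle inhibitors that PRC1 is best known for silencing, had 15.25 ± 0.13 (SD, n = 3) in Ikaros and 14.50 ± 0.31 in control cells, a difference of 0.76 (SE 0.27, limma adjusted p = 0.0164). That call was lost with library preparation run as a term (0.109), without replicate 1 (0.120) and without replicate 2 (0.223). The control level of Cdkn2a was already high, above the Eed mean of 13.25 at the 76.1th percentile of genes. Gata3, a regulator of T cells, had 7.52 ± 0.34 against 5.61 ± 1.04, a difference of 1.91 (SE 0.52, limma adjusted p = 0.00239), lost without replicate 1 (0.0647). Its level is low on the scale of the table. Cdkn2b, Hoxa5, Hoxb4, Hoxb6 and Pax6 were not called at 24 h, with differences of 0.22, 0.99, -0.01, 0.11 and -0.87.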
